A study of Rattus norvegicus with 6 samples.

Results

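The genes of the rat major histocompatibility complex (MHC), named RT1, and 7 genes that serve antigen presentation were followed in rat hind-limb muscle under acute osteofascial compartment syndrome (ACS). Every row of the deposited table whose symbol begins with RT1- was taken, together with B2m, Cd74, Ciita, Nlrc5, Tap1, Tap2 and Tapbp. This gave 52 of 30957 rows: 34 of class I, 10 of class II (RT1-Ba, Bb, Da, Db1, Db2, DMa, DMb, DOa, DOb and Ha) and 8 of the partner genes, because Tap2 stands in the table at 2 places. All 44 RT1 rows lie on chromosome 20.

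MHC class I molecules stand on almost all nucleated cells and show CD8 T cells peptides made inside the cell. Each consists of a heavy chain and the light chain B2m, and is loaded with peptides that Tap1 and Tap2 carry into the endoplasmic reticulum and that Tapbp (tapasin) helps to fit. MHC class II molecules are pairs of an alpha and a beta chain, are made mainly by macrophages, dendritic cells and B cells, and show peptides from engulfed material to CD4 T cells. Their assembly needs the invariant chain Cd74 and the DM pair, and their transcription needs Ciita, while Nlrc5 is its counterpart for class I. In the rat, RT1-A genes are the classical class I genes, and the RT1-CE, RT1-N, RT1-T24, RT1-S and RT1-M genes lie in other class I regions. Healthy muscle fibres carry little of either class.

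The libraries hold RNA, depleted of ribosomal RNA, of the flexor digitorum longus (a toe flexor of the hind limb) of wild-type Sprague-Dawley rats. The compartment syndrome was produced with a low-elastic band tied around the limb at the knee. The groups were control muscle at 0 h and ACS muscle at 18 h, with 3 libraries each, and both groups received standard food and water. There was no control at 18 h, so ACS and time cannot be told apart. The labels give no age and no sex, list ACS as the treatment of all 6 libraries (the titles separate the groups), and do not give the number of rats. The p-values here therefore reflect the spread among these 6 libraries, part of which may be technical.

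Library totals lay between 14340865 and 21003928 counts. ACS replicate 1 stood apart: mitochondrial genes took 43.4% of its counts and 4.82% to 8.60% of those in the other 5 libraries. Of 6 skeletal muscle markers 4 were matched, and their summed level was 113557 to 136177 CPM (counts scaled to library size with TMM factors) in control and 69080 to 177713 CPM in ACS libraries. Summed levels of 8 macrophage markers were 30.7 to 49.5 CPM in control muscle and 186, 86.5 and 45.8 CPM in ACS replicates 1, 2 and 3. Those of 8 dendritic cell markers were 7.88 to 11.1 CPM in control and 68.2, 12.0 and 11.4 CPM in ACS libraries. Zbtb46 of that list lay lower in every ACS library than in any control library. All 5 neutrophil markers were called higher in ACS muscle (edgeR adjusted p under 0.05), against 3.43% of all genes. Their summed levels were 1.3 to 5.94 CPM in control and 362, 24.8 and 80.3 CPM in ACS libraries. The 6 B cell markers summed to at most 4.77 CPM and the 10 T and NK cell markers to at most 4.67 CPM, both in ACS replicate 1, and no gene of either list had enough counts to be tested.

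The promoters of some members are shown first, and whether their sequence bears on the levels was not tested. RefSeq holds a promoter (250 bases before to 50 after the start, build GRCr8) for 40 of the 51 member symbols. GRCr8 is a later build than the Rnor 6.0 of the counts, and RT1 names need not match one to one between them. Both strands were searched for GAAANNGAA, the core of an interferon-stimulated element; for GGGGATTCC, the core of the κB site in the class I enhancer A; for CCTAGCAAC, from an X box; for CTGATTGG, a Y box; and for ATTGG, the CCAAT core, which lies inside the Y box. Matches on either strand are in capitals below, positions are counted from the transcription start, and a match is a run of letters rather than a shown binding site. Only these exact letters were searched, so an element spelled otherwise is missed and the lack of a match does not show its absence.
B2m, chr3:129549080-129549379, + strand: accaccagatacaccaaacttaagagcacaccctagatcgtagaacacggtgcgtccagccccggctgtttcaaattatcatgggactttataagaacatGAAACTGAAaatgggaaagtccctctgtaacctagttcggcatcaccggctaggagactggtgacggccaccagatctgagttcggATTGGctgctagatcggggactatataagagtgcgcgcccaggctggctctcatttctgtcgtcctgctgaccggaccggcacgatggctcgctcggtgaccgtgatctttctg
RT1-A1, chr20:4906959-4907258, + strand: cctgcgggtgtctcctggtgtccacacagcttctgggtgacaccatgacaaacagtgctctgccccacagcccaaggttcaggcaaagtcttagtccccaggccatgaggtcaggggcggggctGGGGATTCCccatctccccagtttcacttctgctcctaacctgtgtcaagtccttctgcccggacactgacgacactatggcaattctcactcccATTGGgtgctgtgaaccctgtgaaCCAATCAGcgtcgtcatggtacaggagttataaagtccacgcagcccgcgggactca
RT1-A2, chr20:4872621-4872920, + strand: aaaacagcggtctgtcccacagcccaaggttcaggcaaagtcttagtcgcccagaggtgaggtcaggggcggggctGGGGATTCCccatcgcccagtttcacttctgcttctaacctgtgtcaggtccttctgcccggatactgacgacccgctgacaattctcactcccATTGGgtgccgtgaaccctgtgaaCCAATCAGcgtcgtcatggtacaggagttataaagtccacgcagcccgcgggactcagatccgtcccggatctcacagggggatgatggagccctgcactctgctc
RT1-N2, chr20:2646080-2646379, + strand: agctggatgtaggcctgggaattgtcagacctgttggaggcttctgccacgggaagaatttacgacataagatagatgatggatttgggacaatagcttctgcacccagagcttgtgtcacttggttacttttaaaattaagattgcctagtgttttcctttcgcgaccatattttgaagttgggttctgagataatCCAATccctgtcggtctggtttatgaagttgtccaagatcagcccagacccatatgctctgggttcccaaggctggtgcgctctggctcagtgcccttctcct
RT1-N3, chr20:2666239-2666538, + strand: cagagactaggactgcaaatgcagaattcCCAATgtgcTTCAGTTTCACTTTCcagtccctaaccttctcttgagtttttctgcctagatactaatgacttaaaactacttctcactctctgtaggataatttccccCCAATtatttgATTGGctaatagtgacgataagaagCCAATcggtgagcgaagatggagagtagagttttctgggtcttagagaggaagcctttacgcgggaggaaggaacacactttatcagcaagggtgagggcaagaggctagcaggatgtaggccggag
RT1-T24-3, chr20:2722875-2723174, + strand: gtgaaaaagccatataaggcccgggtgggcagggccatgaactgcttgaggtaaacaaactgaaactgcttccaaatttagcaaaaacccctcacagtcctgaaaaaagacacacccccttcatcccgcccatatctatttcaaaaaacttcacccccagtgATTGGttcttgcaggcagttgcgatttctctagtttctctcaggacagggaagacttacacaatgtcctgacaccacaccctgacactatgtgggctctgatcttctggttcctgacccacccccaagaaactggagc
RT1-Ba, chr20:4576807-4577106, + strand: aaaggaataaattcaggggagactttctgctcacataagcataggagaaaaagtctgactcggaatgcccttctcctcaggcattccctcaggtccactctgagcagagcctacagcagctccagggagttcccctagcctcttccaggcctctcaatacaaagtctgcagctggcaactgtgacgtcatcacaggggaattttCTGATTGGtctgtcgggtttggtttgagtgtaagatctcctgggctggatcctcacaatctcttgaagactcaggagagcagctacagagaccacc
RT1-Da, chr20:4515165-4515464, + strand: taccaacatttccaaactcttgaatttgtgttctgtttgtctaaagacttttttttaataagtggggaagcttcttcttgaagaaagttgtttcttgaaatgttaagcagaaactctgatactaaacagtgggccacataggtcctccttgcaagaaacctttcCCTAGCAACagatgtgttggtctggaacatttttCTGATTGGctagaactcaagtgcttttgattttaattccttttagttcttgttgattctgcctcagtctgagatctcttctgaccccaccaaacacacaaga
B2m is the light chain of every class I molecule, RT1-A1 and RT1-A2 are heavy chains of the classical region, and RT1-Ba and RT1-Da are class II alpha chains. RT1-N2, RT1-N3 and RT1-T24-3 are heavy chains whose levels lay lower in ACS muscle, though none passed an adjusted p of 0.05 in edgeR. The promoters to print were picked with the levels known, so they cannot tie a string to a direction.

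The searched letters fell differently on the gene groups. The κB letters stood in the promoters of RT1-A1, RT1-A2, RT1-A3, RT1-CE3, RT1-CE4, RT1-CE10 and RT1-CE16, 7 of 40 members, against 0.281% of 33469 rat promoters. In RT1-A2 they lay at -174 to -166 and in RT1-A1 at -126 to -118 from the start. None of the RT1-N or RT1-T24 promoters found held them. Related class I promoters share sequence (RT1-A2 and RT1-A3 were 87.7% identical), so these are not separate cases. The letters GAAANNGAA stood in 7 members, against 9.71% of all promoters: B2m (-150 to -142), Tap1, Tap2, Tapbp, RT1-N3, RT1-S2 and RT1-S3. Other spellings of an interferon-stimulated element were not searched, in the RT1-A promoters or elsewhere. No class II promoter held these letters or the κB letters. The Y box letters stood in 7 of 9 class II and 9 of 26 class I promoters, against 3.50% of all promoters. ATTGG alone was in 28 of 40 members and in 37.5% of all promoters. The X box letters were found in RT1-DOb and in RT1-Da, there at -86 to -78, upstream of its Y box at -52 to -45, against 0.807% of all promoters. RT1-Ba held the Y box letters at -46 to -39. Of 4 further strings, not capitalised above, TGACGC was in 3 members (6.73% of all promoters), TGACGT in 2 (7.94%), GGGNNTTCC, which overlaps the κB letters, in 11 (5.92%) and GGACC in 20 (45.5%).

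Counts were enough to test 30 of the 52 members: 16 class I, 6 class II and 8 partner rows. Of the other 22, 13 class I rows had no count in any library and 4 rows had under 10 counts in all. The remaining 5 had more in all but reached the filter's minimum count in too few libraries. None of the 30 passed an adjusted p of 0.05 in edgeR's quasi-likelihood test with Benjamini-Hochberg adjustment over 12873 genes, where 3.43% of all genes were called higher and 0.707% lower. At an unadjusted p under 0.05, 6 members had higher and 4 had lower values in ACS muscle, against 15.5% and 7.98% of all genes. Of 39 members it could test, DESeq2 called 2 higher and 1 lower, against 7.03% and 2.28% of 18776 genes. Without a low-count filter edgeR called 1 higher and 1 lower of the same 39, against 4.02% and 0.815%. The limma-voom fit called 0 of 30, against 2.04% and 0.552%. Every ACS library lay above every control library for 3 members (10%, against 16.7% of all genes) and below for 4 (13.3%, against 14.8%), shares near or under the background. In FPKM, which scale by library totals, all 3 of the former overlapped, so 0 members lay above (9.47% of all genes). The 4 below remained, and RT1-CE2 and RT1-M3-1 joined them, 6 of 30 against 27.3% of all genes. The median log2 fold change was 0.06 over class I (range -1.87 to 2.24), 1.03 over class II (0.25 to 1.82) and 0.57 over the partner rows, beside -0.01 over all genes. ACS replicate 1 held the highest value of the 6 libraries for 5 of 6 class II members, 6 of 8 partner rows and 4 of 16 class I members, against 29.3% of all genes.

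**Figure D1:**
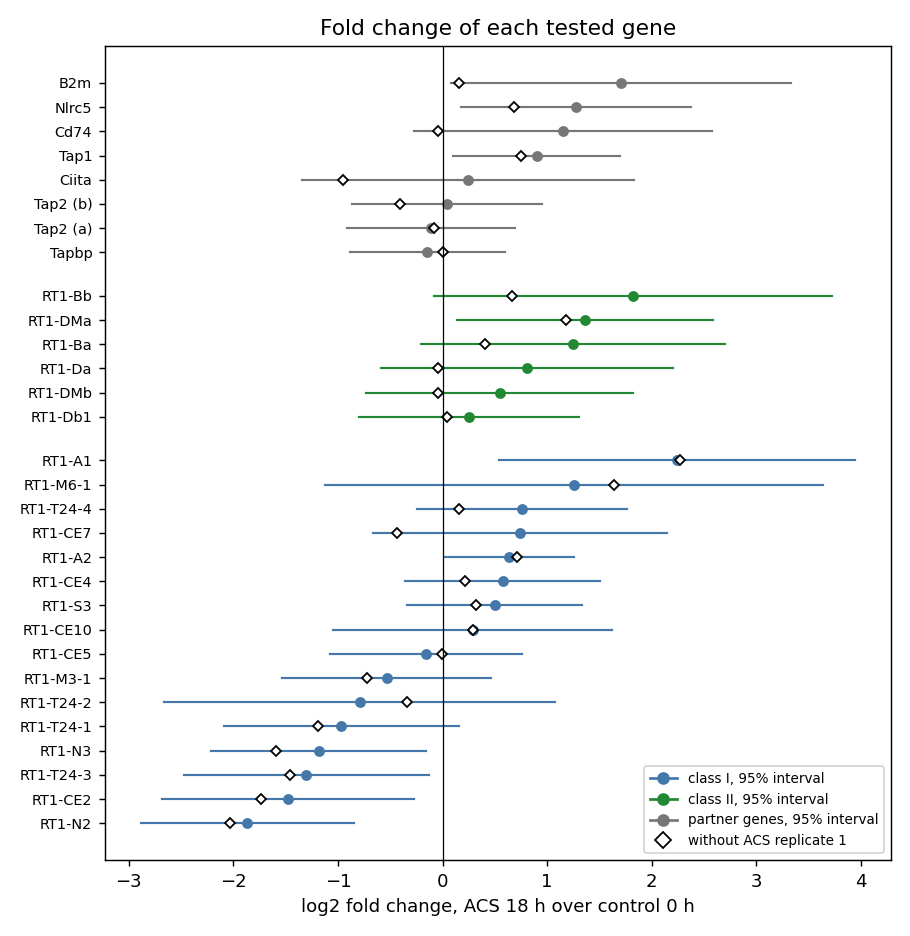
Log2 fold change (ACS 18 h over control 0 h, x axis) of each of the 30 tested genes with its 95% interval from edgeR, grouped into class I, class II and partner genes. White diamonds give the log2 fold change without ACS replicate 1. Class I values run from -1.87 (RT1-N2) to 2.24 (RT1-A1) on both sides of 0, and the 6 class II values lie above 0 with wide intervals. The lowest values over the alternatives were under 0 for RT1-Da (-0.047), RT1-DMb (-0.044) and RT1-Db1 (-0.10).

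Per length, B2m was the most abundant member. Its mean FPKM (fragments per gene length and library depth) was 58.2 in control and 135 in ACS muscle, ahead of Cd74 at 16.7 and 26.8 FPKM. Without ACS replicate 1 the ACS means were 56.3 FPKM for B2m and 14.1 FPKM for Cd74, both under the control means. Tapbp followed at 7.35 FPKM in control, then RT1-A2 at 5.67, RT1-T24-4 at 5.48, RT1-S3 at 3.98 and RT1-Da at 3.11 FPKM. From Tapbp to RT1-S3, the control libraries of each neighbouring pair in this order overlapped (SD 0.606 to 1.33 FPKM). Among class I heavy chains RT1-A2 was the highest in control means and RT1-T24-4 stood beside it, and in class II RT1-Da stood above RT1-Ba at 1.29 FPKM. RT1-Ba and RT1-Db1 (0.577 FPKM) differed by little more than their SDs of 0.601 and 0.295 FPKM.

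**Figure D2:**
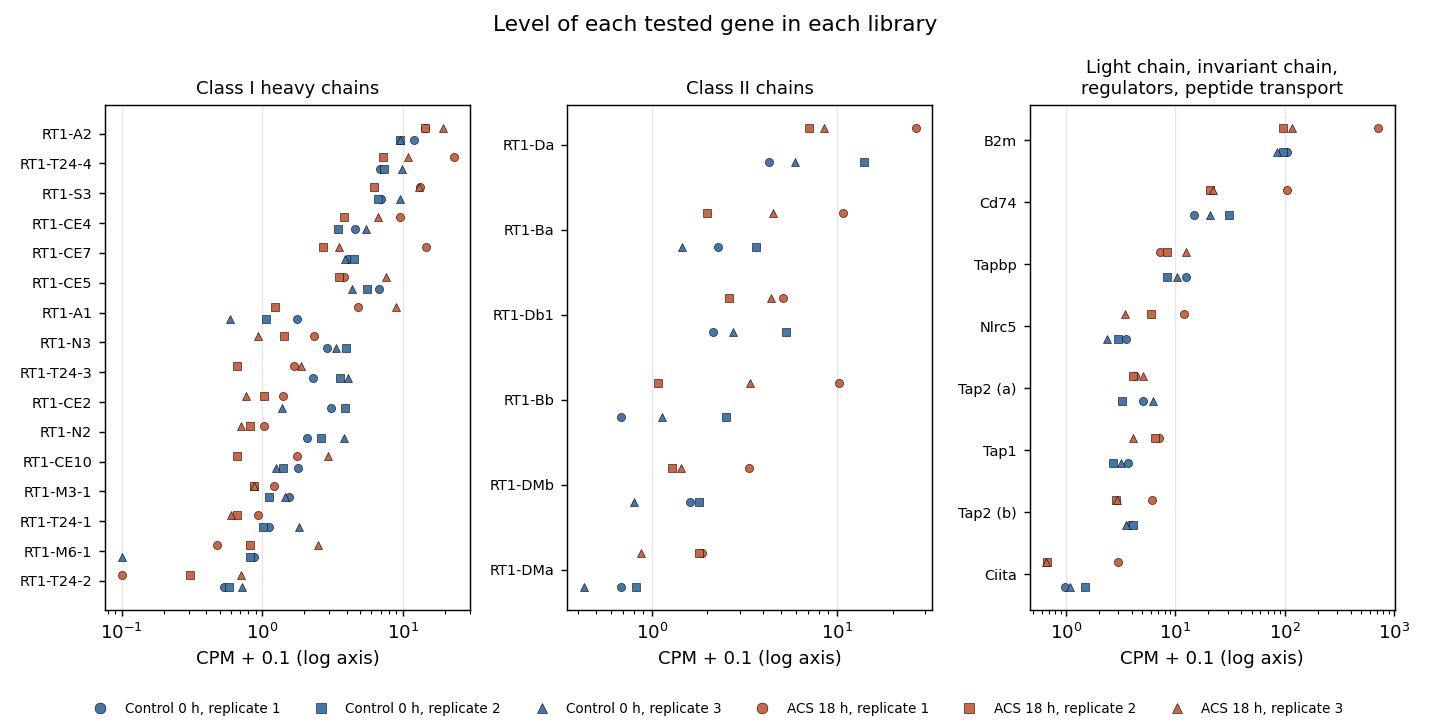
Level of each of the 30 tested genes in each of the 6 libraries, as CPM + 0.1 on a log x axis, with 1 point per library and 1 panel each for class I, class II and partner genes; Tap2 (a) and (b) are the rows on the + and - strand. ACS replicate 1 lies far to the right for B2m (716 CPM) and Cd74 (104 CPM), while the other 2 ACS libraries lie near the control libraries.

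The classical heavy chains RT1-A1 and RT1-A2 had higher mean levels in ACS muscle. RT1-A2 (chromosome 20, 5374985 to 5378539, + strand) was at 11.8, 9.47 and 9.49 CPM in control replicates 1, 2 and 3 and at 14.3, 14.3 and 19.3 CPM in ACS replicates 1, 2 and 3. On this scale all ACS libraries lay above all control libraries (in FPKM the groups overlapped), by a log2 fold change of 0.64 (SE 0.271, 95% interval 0.02 to 1.25) that did not pass (edgeR adjusted p = 0.199). RT1-A1 (chromosome 20, 5351605 to 5421098, + strand) was at 1.66, 0.967 and 0.495 CPM in control and 4.67, 1.13 and 8.92 CPM in ACS libraries. The groups overlapped, since ACS replicate 2 lay below control replicate 1, and ACS replicate 3 held the highest value. Its log2 fold change was 2.24 (SE 0.747, 95% interval 0.54 to 3.94, edgeR adjusted p = 0.116). DESeq2 gave 2.23 with an adjusted p of 0.0284, and the adjusted p lay between 0.0284 and 0.406 over 17 alternatives. The 2 loci overlap on the same strand and are close relatives in sequence, so how reads were shared between them is uncertain.

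Counts of some RT1-CE genes, and of RT1-A3, differed widely from library to library. RT1-CE6 (chromosome 20, 4673843 to 4677506, - strand) had no count in any control library and 4, 81 and 40 counts in ACS replicates 1, 2 and 3. With a floor of 3 counts for the control group as a whole (0.0458 CPM), its pooled ACS level was at least 56.7-fold higher. That bound was at least 33.5-fold without ACS replicate 2 and at least 35.7-fold without control replicate 3. It holds for the pooled level only, since ACS replicate 1 was at 0.374 CPM. The RT1-CE6 locus overlaps those of RT1-CE2 and RT1-CE4 on the same strand, so how reads were shared among them is uncertain. The filter left RT1-CE6 out because fewer than 3 libraries held 10 counts. DESeq2 called it (adjusted p = 6.85e-06), as did edgeR without a low-count filter (adjusted p = 0.00952) and without ACS replicate 1 (adjusted p = 0.00564). The adjusted p lay between 6.85e-06 and 0.193 over 7 alternatives. RT1-CE16 had 5, 0 and 0 counts in control and 100, 0 and 26 in ACS libraries. RT1-A3, whose locus overlaps that of RT1-CE16 on the same strand, had 1, 0 and 0 counts in control and 8, 0 and 2 in ACS libraries. ACS replicate 2, which held most of the RT1-CE6 counts, thus held none of RT1-CE16 or RT1-A3. RT1-CE3 had 8 counts in control and 14 in ACS muscle in all. RT1 class I genes vary in number and sequence between rat haplotypes and the reference comes from the BN strain, so reads of another haplotype may stand under another RT1 name.

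The other RT1-CE genes gave no common direction. RT1-CE2 was at 2.97, 3.77 and 1.28 CPM in control and 1.31, 0.925 and 0.669 CPM in ACS libraries (log2 fold change -1.48, edgeR adjusted p = 0.137), and control replicate 3 lay within the ACS range. RT1-CE7 was at 4.0, 4.40 and 3.80 CPM in control and 14.6, 2.62 and 3.40 CPM in ACS libraries. Its log2 fold change of 0.74 (edgeR adjusted p = 0.501) became -0.43 without ACS replicate 1, the 1 library above control. RT1-CE4, RT1-CE5 and RT1-CE10 had log2 fold changes of 0.57, -0.16 and 0.29, with overlapping groups and edgeR adjusted p of 0.429, 0.836 and 0.792. The annotated RT1-CE2, RT1-CE4 and RT1-CE7 loci span other genes, among them the abundant Ddx39b in that of RT1-CE2. Of the 30 tested members 13 overlap another locus and 9 a locus on the opposite strand, so such counts may include reads of another gene.

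Of the RT1-N and RT1-T24 heavy chains, 4 of low abundance had all 3 ACS libraries under all 3 control libraries. RT1-N2 (chromosome 20, 3146856 to 3150852, + strand) was at 2.00, 2.51 and 3.71 CPM in control and 0.935, 0.720 and 0.613 CPM in ACS libraries, means of 2.74 ± 0.881 and 0.756 ± 0.164 CPM (SD, n = 3 each). The ACS values were close together and all under 1 CPM. Its log2 fold change of -1.87 (SE 0.447, 95% interval -2.89 to -0.85) had the smallest adjusted p of all tested members, 0.0547 (edgeR). Over 17 alternatives the adjusted p lay between 0.00846 and 0.196, and 4 of them called it lower: library totals, no low-count filter, DESeq2, and the fit without ACS replicate 1 (log2 fold change -2.03, adjusted p = 0.0391). The counts behind it were 10 to 14 in each ACS library.

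RT1-N3 (chromosome 20, 3167079 to 3170945, + strand) was at 2.78, 3.87 and 3.26 CPM in control and 2.24, 1.34 and 0.837 CPM in ACS libraries (log2 fold change -1.19, SE 0.452, edgeR adjusted p = 0.160). RT1-T24-3 (chromosome 20, 3226352 to 3233694, + strand) was at 2.19, 3.48 and 3.96 CPM in control and 1.59, 0.566 and 1.78 CPM in ACS libraries (log2 fold change -1.30, SE 0.512, edgeR adjusted p = 0.170). RT1-T24-1 was at 1.02, 0.918 and 1.73 CPM in control and 0.841, 0.566 and 0.502 CPM in ACS libraries (log2 fold change -0.97, edgeR adjusted p = 0.274). The lower values thus held in all 3 ACS libraries, ACS replicate 1 included, but none passed the test, and 14.8% of all genes were separated in this direction. RT1-T24-4 did not share the pattern: it was at 6.82, 7.30 and 9.82 CPM in control and 22.9, 7.10 and 10.8 CPM in ACS libraries (log2 fold change 0.76, edgeR adjusted p = 0.329). RT1-T24-2 was near the limit of counting, with 0.439, 0.483 and 0.619 CPM in control and 0, 0.206 and 0.613 CPM in ACS libraries.

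The make-up of class I counts within each library needs no scaling between libraries. RT1-N2 and RT1-N3 together took 8.19%, 11.4% and 11.6% of class I counts in control libraries and 3.06%, 4.17% and 1.71% in ACS libraries, means of 10.4% ± 1.94 and 2.98% ± 1.23 (SD, n = 3 each). RT1-T24-1, RT1-T24-2 and RT1-T24-3 together took 6.27%, 8.76% and 10.5% in control and 2.34%, 2.71% and 3.43% in ACS libraries. The groups did not overlap for either share, but RT1-T24-4 was left out of the latter after its values were seen. With it, the 4 RT1-T24 genes took 18.0%, 21.9% and 26.9% in control and 24.4%, 17.1% and 16.2% in ACS libraries, which overlapped. The RT1-A share was 23.2%, 18.7% and 16.7% in control and 19.0%, 31.3% and 33.5% in ACS libraries, and overlapped. The RT1-CE share overlapped between groups, at 26.6% to 34.8% in control and 29.5% to 39.3% in ACS libraries. With RT1-T24-4 kept apart, it was the largest share in 5 of the 6 libraries. With the 4 RT1-T24 genes together, these led in control replicate 3 (26.9% against 26.6% for RT1-CE). These genes are related in sequence, so the treatment of reads that match several of them bears on every share.

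**Figure D3:**
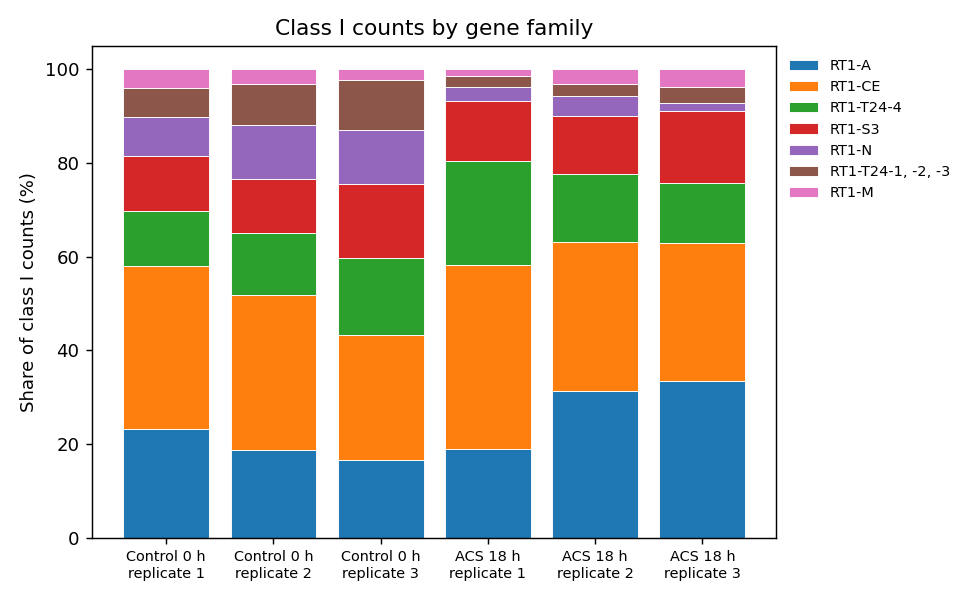
Share of all class I counts (y axis, %) taken by each class I gene family in each of the 6 libraries, as stacked bars from 0. RT1-N takes 8.19% to 11.6% in control and 1.71% to 4.17% in ACS libraries, and RT1-T24-1, -2 and -3 together take 6.27% to 10.5% and 2.34% to 3.43%, while RT1-T24-4, drawn apart, takes 11.7% to 16.4% and 12.7% to 22.1%.

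The remaining tested class I genes had overlapping groups. RT1-S3, the rat counterpart of mouse Qa-1, was at 6.92, 6.52 and 9.49 CPM in control and 13.3, 6.17 and 13.0 CPM in ACS libraries (log2 fold change 0.50, edgeR adjusted p = 0.448). RT1-M3-1, the counterpart of the formyl-peptide presenting mouse M3, was at 1.46, 1.01 and 1.36 CPM in control and 1.12, 0.771 and 0.781 CPM in ACS libraries (log2 fold change -0.54, edgeR adjusted p = 0.490). RT1-M6-1 ranged from 0 to 0.780 CPM in control and from 0.374 to 2.40 CPM in ACS libraries. The RT1-M family was otherwise at or near 0: RT1-M5 had 3 counts, all in control, and the other RT1-M rows had none.

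The class I partners had unlike values. B2m (chromosome 3, 114087287 to 114093309, + strand) was at 104, 96.0 and 84.5 CPM in control and 716, 95.8 and 116 CPM in ACS libraries. ACS replicate 1 stood 7.54-fold above the control mean, while ACS replicate 2 lay inside the control range and ACS replicate 3 above it. The log2 fold change was 1.70 (SE 0.714, 95% interval 0.08 to 3.33, edgeR adjusted p = 0.194) and 0.15 without ACS replicate 1. Class I heavy chains did not match that level in the same library: their sum there was 1.79 times the control mean, and B2m over summed class I FPKM was 7.87 in ACS replicate 1 against 1.66 to 2.27 in the other 5 libraries.

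Tap1 (chromosome 20, 3979035 to 3989669, + strand), a subunit of the peptide pump, was at 3.56, 2.61 and 3.10 CPM in control and 6.92, 6.38 and 4.02 CPM in ACS libraries. All ACS libraries lay above all control libraries in CPM but not in FPKM (log2 fold change 0.90, SE 0.351, 95% interval 0.10 to 1.70), short of the threshold (edgeR adjusted p = 0.168). For its partner subunit Tap2, the row on the + strand at 3995544 to 4009587 had a log2 fold change of -0.11 and that on the - strand at 5198258 to 5212624 one of 0.04 (edgeR adjusted p = 0.874 and 0.964), and their sum one of -0.04. Tapbp was at 12.3, 8.26 and 10.2 CPM in control and 7.10, 8.23 and 12.4 CPM in ACS libraries (log2 fold change -0.15, edgeR adjusted p = 0.812). Nlrc5 (chromosome 19, 10905542 to 10976396, - strand), the class I transactivator, was at 3.46, 2.90 and 2.27 CPM in control and 11.8, 5.91 and 3.35 CPM in ACS libraries. Its lowest ACS library lay just under the highest control (log2 fold change 1.28, SE 0.482, edgeR adjusted p = 0.157). It passed in 1 of 18 alternatives, the fit without ACS replicate 3 (log2 fold change 1.61, edgeR adjusted p = 0.0432), and the adjusted p over all 18 lay between 0.0432 and 0.376.

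The tested class II alpha and beta chains had positive log2 fold changes and, apart from RT1-DMa, overlapping groups. Over the alternatives the lowest values were under 0 for RT1-Da (-0.047), RT1-DMb (-0.044) and RT1-Db1 (-0.10, with library totals in place of TMM). RT1-Da (chromosome 20, 4127644 to 4132616, - strand), the most abundant of them, was at 4.19, 13.9 and 5.82 CPM in control and 26.6, 6.99 and 8.48 CPM in ACS libraries (log2 fold change 0.81, SE 0.614, edgeR adjusted p = 0.458). Its beta chain RT1-Db1 was at 2.05, 5.22 and 2.64 CPM and 5.05, 2.52 and 4.29 CPM (log2 fold change 0.25, edgeR adjusted p = 0.765). For both, control replicate 2 held more than ACS replicates 2 and 3. RT1-Ba (chromosome 20, 4066132 to 4070721, - strand) was at 2.19, 3.58 and 1.36 CPM in control and 10.7, 1.90 and 4.41 CPM in ACS libraries (log2 fold change 1.24, SE 0.638, edgeR adjusted p = 0.276). Its beta chain RT1-Bb (chromosome 20, 4039413 to 4049711, + strand) was at 0.585, 2.42 and 1.03 CPM and 10.2, 0.977 and 3.29 CPM (log2 fold change 1.82, SE 0.835, edgeR adjusted p = 0.229). ACS replicate 1 was the highest library for RT1-Da, RT1-Ba and RT1-Bb, and leaving it out gave log2 fold changes of -0.05, 0.40 and 0.66.

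RT1-DMa and RT1-DMb encode the DM pair, which exchanges peptides on class II molecules. RT1-DMa (chromosome 20, 5240975 to 5244386, - strand) was at 0.585, 0.725 and 0.330 CPM in control and 1.78, 1.70 and 0.781 CPM in ACS libraries, so that all ACS libraries lay above all control libraries in CPM but not in FPKM (log2 fold change 1.36, SE 0.538, 95% interval 0.14 to 2.59, edgeR adjusted p = 0.172). The table holds a second row described as a DM alpha chain, LOC100909593, and reads may be split between them. Added together, they were at 1.07, 2.03 and 1.61 CPM in control and 4.77, 6.22 and 3.18 CPM in ACS libraries, with ACS replicate 2 the highest (log2 fold change 1.58, SE 0.422, edgeR adjusted p = 0.0692). RT1-DMb was at 1.51, 1.69 and 0.702 CPM in control and 3.27, 1.18 and 1.34 CPM in ACS libraries (log2 fold change 0.55, edgeR adjusted p = 0.586). Of the DO pair that opposes DM, RT1-DOa had 26 counts in control and 13 in ACS muscle, and RT1-DOb 2 counts in all. RT1-Ha and RT1-Db2 had 2 and 1 counts, all in control replicate 2.

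Cd74 (chromosome 18, 56071478 to 56080849, + strand), the invariant chain, was at 14.8, 30.5 and 20.4 CPM in control and 104, 20.5 and 22.2 CPM in ACS libraries. ACS replicate 1 stood 4.74-fold above the control mean and the other ACS libraries lay inside the control range. The log2 fold change was 1.15 (SE 0.625, edgeR adjusted p = 0.300) and -0.04 without ACS replicate 1. Ciita (chromosome 10, 5213350 to 5260608, - strand), the class II transactivator, was also highest in ACS replicate 1, at low level: 0.877, 1.40 and 0.990 CPM in control and 2.90, 0.566 and 0.558 CPM in ACS libraries (log2 fold change 0.24, edgeR adjusted p = 0.861). Its value was -0.95 without ACS replicate 1, where both other ACS libraries lay below all controls.

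Class I and class II were set against each other within each library. Summed class I counts were at 58.3, 55.7 and 60.0 CPM in control and 104, 49.3 and 84.6 CPM in ACS libraries, a ratio of group means of 1.37, or 1.15 without ACS replicate 1. Summed class II counts were at 11.4, 28.3 and 12.3 CPM in control and 57.9, 15.6 and 22.9 CPM in ACS libraries, a ratio of 1.85, or 1.11 without ACS replicate 1. Control libraries varied little in class I and more than 2-fold in class II. Class I over class II in summed FPKM was 7.05, 2.82 and 7.40 in control and 2.65, 4.55 and 5.24 in ACS libraries, which overlapped. The ratio of B2m to Cd74 counts was 7.07, 3.14 and 4.14 in control and 6.88, 4.68 and 5.21 in ACS libraries. On the log2 scale it differed by 0.29 (2.17 ± 0.594 in control and 2.46 ± 0.287 in ACS muscle, SD, n = 3 each; 2-sided exact permutation test, p = 0.5, where 0.1 is the smallest p that 3 against 3 allows). B2m and Cd74 were thus both high in ACS replicate 1, and their ratio there lay inside the control range.

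Relative to the control mean, ACS replicates 1, 2 and 3 stood at 3.34, 0.899 and 1.32 for summed class II, at 7.54, 1.01 and 1.22 for B2m, and at 4.31, 2.00 and 1.06 for the 8 macrophage markers. Summed class II, B2m and the summed macrophage, dendritic cell and neutrophil markers were all highest in the library with the most mitochondrial counts. Single markers varied: that library was the highest for 6 of 8 macrophage and 4 of 8 dendritic cell markers. Itgax (41.2 CPM) and Clec10a (21.8 CPM) made up most of its dendritic cell sum. Zbtb46 went the other way, at 5.46, 4.49 and 6.81 CPM in control and 3.83, 2.11 and 1.39 CPM in ACS libraries. Xcr1 and Clec9a had no count in ACS replicate 1, and 4 and 1 counts in all. In ACS replicate 2, macrophage markers stood at 2.00 times the control mean and class II at 0.899 times. Summed class II there, at 15.6 CPM, lay inside the control range (11.4, 28.3 and 12.3 CPM), below control replicate 2 alone. Endothelial markers (5 of 6 listed were matched), from cells that also carry class I, stood at 1.83, 1.05 and 0.607. ACS replicate 1 was the highest library for 2 of these 5, and their median log2 fold change was -0.46. The part of cell make-up, or of the mitochondrial share, in these values was not tested. In bulk tissue a change in the number of cells of a type and a change in RNA per cell cannot be told apart.

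**Figure D4:**
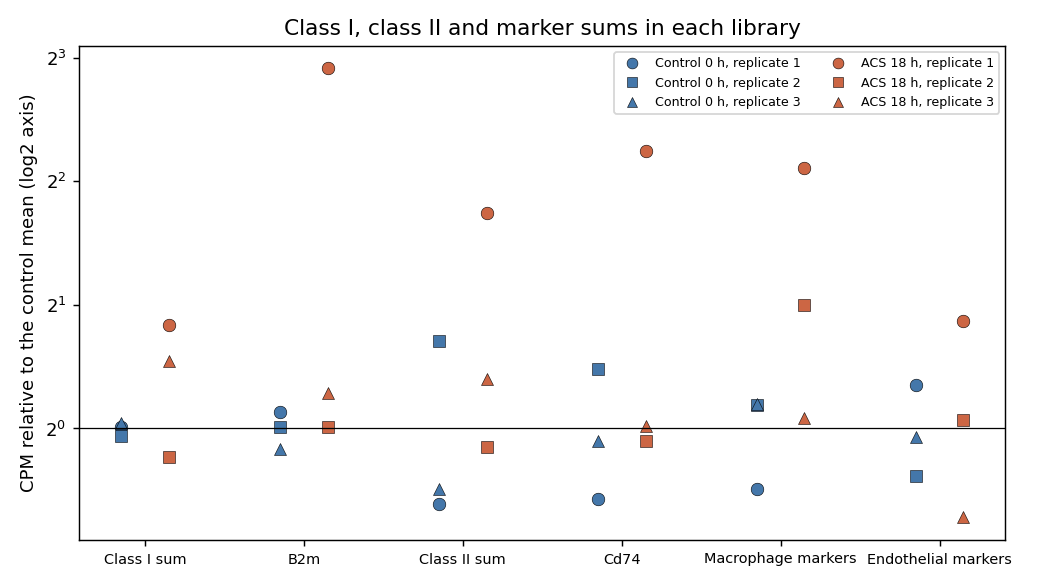
Summed class I, B2m, summed class II, Cd74, macrophage markers and endothelial markers in each library, as CPM relative to the mean of the 3 control libraries (y axis, log2-scaled), with 1 point per library. ACS replicate 1 lies at 7.54 for B2m, 4.74 for Cd74 and 3.34 for class II, while the other 2 ACS libraries lie between 0.899 and 1.32 for these 3.

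The wider presentation pathway also gave 0 calls in edgeR. In a class I list of 14 genes (immunoproteasome, peptide trimming and loading, class I-like molecules), 13 were tested, 2 had an unadjusted p under 0.05 and the median log2 fold change was -0.13. Its most abundant gene per length, the loading chaperone Calr, was at 184, 193 and 190 CPM in control and 402, 185 and 235 CPM in ACS libraries (log2 fold change 0.54, edgeR adjusted p = 0.365). In a class II list of 14 symbols (X-box factors, lysosomal proteases, costimulators), 8 were tested, 4 had an unadjusted p under 0.05 and the median was 0.94. Its most abundant gene, the lysosomal protease Ctsd, was at 303, 257 and 250 CPM in control and 140, 266 and 213 CPM in ACS libraries (log2 fold change -0.39, edgeR adjusted p = 0.478). In a list of 10 genes of interferon gamma signalling, 8 were tested, 3 had an unadjusted p under 0.05 and the median was 0.68. The kinase Jak1, its most abundant gene, was at 137, 116 and 135 CPM in control and 197, 154 and 153 CPM in ACS libraries (log2 fold change 0.38, edgeR adjusted p = 0.396), and Ifng itself had no count in any library. Over all genes 23.5% had an unadjusted p under 0.05 in this fit. DESeq2, which called 7.03% of all genes higher and 2.28% lower, called 1 of 14 higher and 1 lower in the class I list, 3 of 12 higher in the class II list and 1 of 9 higher in the interferon gamma list, and limma-voom called 0 in each.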

How the data were processed

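Read counts per gene and FPKM values were deposited by the authors in 1 table of 30957 Ensembl genes. Per the submitters' processing notes, HISAT2 2.0.4, StringTie 1.3.0 and the Rnor 6.0 build were used. The counting tool and its strand and multi-mapping settings were not given in the sources used here, so reads of overlapping or near-identical RT1 genes may be shared. The members and gene lists were chosen with earlier results of these data known. Members passing filterByExpr (minimum count 10, minimum total 15) were tested by edgeR's quasi-likelihood test with TMM factors in a fit of 12873 genes, with Benjamini-Hochberg adjustment over all of them; SEs were derived from F. CPM are TMM-scaled and their spread is the SD over 3 libraries. The text names the 7 partner symbols, every tested RT1 row, untested RT1 rows with at least 10 counts (others by number, or named after their values were seen), and the most abundant gene of each pathway list. Floors cover counting error only. Alternatives changed normalization, filter, test, FPKM pseudocount (1 or 0.1) and fold limit, added a replicate block or a term for libraries described with "ji", or left out libraries. Summing second gene copies was added after seeing the data. Scripts were tested on simulated data. No 2 libraries agreed within sampling noise. The tools were edgeR 4.0.16, DESeq2 1.42.0 and limma 3.58.1 in R 4.3.3, and matplotlib 3.10.9. Promoters are from RefSeq (GRCr8).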

Additional observations from a re-analysis of the deposited data

How the results depend on the processing

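The count of members called higher was 0 with edgeR. It became 1 with no low-count filter (4.02% of all genes) and 2 with DESeq2 (7.03%). Leaving out 1 library gave 0 to 1. In all, 656 of 13153 genes were called higher without ACS replicate 1 and 1286 of 13226 without ACS replicate 3. The count called lower was 0 and became 1 with library totals (228 of 12873 genes in all). It was also 1 with no low-count filter (0.815% of all genes) and 1 with DESeq2 (2.28%). Leaving out 1 library gave 0 to 1, with 222 of 13153 genes called lower without ACS replicate 1. Without any 1 control library no gene of the whole table was called (2063 to 2289 at an unadjusted p under 0.05), so those fits say nothing of stability. They also gave the upper end of the adjusted p range of RT1-N2, Nlrc5, Fcgrt, Lgmn and Ifngr1. The class I median log2 fold change (0.06) was 0.61 with a filter of 50 counts and -0.41 to 0.68 with a library left out. The class II median (1.03) was 0.017 with limma on log2(FPKM + 1) and no filter, and 0.22 to 1.49 with a library left out. The B2m to Cd74 log2 ratio (0.29) lay between 0.03 and 0.61. Library totals moved the median of all genes from -0.01 to -0.32, and FPKM moved it to as low as -0.37.

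Of 553 alternative values of single members 521 kept their direction, and 18 of 30 members never reversed. With 1 library left out the log2 fold change spanned -0.047 to 1.42 for RT1-Da, -0.95 to 0.61 for Ciita, -0.39 to 0.081 for Tap2 on the + strand, -0.41 to 0.21 for Tap2 on the - strand, -0.42 to 0.0075 for Tapbp, -0.041 to 1.49 for Cd74, -0.62 to 0.020 for RT1-CE5, -0.43 to 1.08 for RT1-CE7, -0.36 to 0.69 for RT1-CE10, -0.044 to 0.76 for RT1-DMb, -0.047 to 0.69 for RT1-Db1 and -0.36 to 1.13 for LOC100909630. Without the "ji" libraries RT1-CE10 was at -0.47, Tap2 on the + strand at 0.021 and RT1-M6-1 at -0.41. With library totals Ciita was at -0.20, RT1-CE10 at -0.039, Tap2 on the - strand at -0.34 and RT1-Db1 at -0.10. With limma-voom Ciita was at -0.27, RT1-CE10 at -0.0012 and Tap2 on the - strand at -0.10. With limma on log2(FPKM + 1) and no filter Ciita was at -0.038, RT1-CE10 at -0.062, RT1-Db1 at -0.024 and Tap2 on the - strand at -0.20. That Tap2 row was at -0.20 with the FPKM filter, at -0.34 with a pseudocount of 0.1 and at -0.016 in edgeR with no low-count filter. The cause of these changes was not tested. The replicate block left 0 members called (Ciita -0.12, Tap2 on the - strand -0.043, with 442 genes higher and 63 lower in all). Deviations of same-numbered libraries from their group means had correlations of -0.06, 0.01 and 0.04. With 3 libraries in each group these cannot decide whether the numbers pair the samples. Most RT1 members had few counts, which limits what could be detected.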

Other observations

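MHC-like rows outside the RT1 names were found by their description in the table after values were seen. Mill1 (chromosome 1, 79631668 to 79657941, + strand), a B2m-binding class I-like gene outside the MHC, was lower in ACS muscle. It was at 3.07, 3.77 and 3.59 CPM in control and 0.935, 0.823 and 0.948 CPM in ACS libraries, with no overlap (log2 fold change -1.94, SE 0.374, edgeR adjusted p = 0.0329). The log2 fold change was -2.08 to -1.91 with 1 library left out. The call was lost without ACS replicate 2 (edgeR adjusted p = 0.0662) or without the "ji" libraries (0.102). It was also lost with the replicate block (0.0588), with the "ji" term (0.0545) and with limma on log2(FPKM + 1) and no filter (0.0620). Without control replicate 1, 2 or 3 the edgeR adjusted p was 0.164, 0.164 and 0.134, but those fits called no gene of the whole table. LOC100909593, the second DM alpha row, was at 0.487, 1.3 and 1.28 CPM in control and 2.99, 4.52 and 2.40 CPM in ACS libraries (edgeR adjusted p = 0.0882). LOC100364500, described as like RT1-CE11, had too few counts to test and lay at 0.390, 0.0967 and 0.330 CPM in control and 0.654, 0.463 and 2.12 CPM in ACS libraries, highest in ACS replicate 3. Mr1 and Micb, further class I-like genes, were also too low to test, at 48 and 29 counts in all.

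The pathway genes with the smallest adjusted p were also picked after their values were seen, and none passed in edgeR with all libraries, TMM and the low-count filter. Fcgrt, the B2m-binding Fc receptor, was at 13.6, 17.1 and 18.4 CPM in control and 6.26, 7.92 and 8.14 CPM in ACS libraries (log2 fold change -1.13, edgeR adjusted p = 0.0560, and 0.00419 to 0.212 over 20 alternatives, of which 5 passed). Lgmn, a lysosomal protease that cuts the invariant chain, was at 22.9, 32.2 and 19.2 CPM in control and 273, 147 and 31.3 CPM in ACS libraries (log2 fold change 2.60, edgeR adjusted p = 0.0615, and 0.000859 to 0.231 over 20 alternatives, of which 4 passed). ACS replicate 3 lay inside the control range there. Ifngr1, a chain of the interferon gamma receptor, was at 26.8, 30.4 and 28.2 CPM in control and 112, 68.9 and 41.8 CPM in ACS libraries, with no overlap (log2 fold change 1.38, edgeR adjusted p = 0.0634, and 0.00899 to 0.241 over 20 alternatives, of which 3 passed).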
